A study of Mus musculus with 83 samples.

Results

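Small heat shock proteins (Hspb1, Hspb6, Hspb8 and Cryab), BAG cochaperones (Bag1 and Bag3) and heat shock factors (Hsf1 and Hsf2) were followed as 8 genes, chosen by symbol, of the 27752 genes in the RNA Polymerase II (Pol II) count tables of C64 cells and of the 55367 genes in those of B8 cells. The values are CUT&Tag reads over each whole gene, a measure of Pol II occupancy and not of mRNA. C64 are mouse embryonic stem cells (mESCs) in which both copies of the TATA-binding protein (TBP) gene carry an auxin-inducible degron. Indole-3-acetic acid (IAA) thereby depletes most of the TBP protein, and the study names incomplete degradation, with some TBP left, as a limit. B8, grown from a single colony of C64, lacks TRF2, a paralog of TBP encoded by Tbpl1. Both lines derive from JM8.N4 cells, and in the study's resource table both also carry a HaloTag on the largest subunit of Pol II. By the study's methods, a variant of histone H3 carries an endogenous GFP tag in all its lines. The 24 libraries, of 83 samples in the series, were as follows: C64 in run 2 after heat shock with IAA (HS + IAA, 500 µM IAA for 6 h and then 30 min at 42 °C), heat shock without IAA (HS), IAA for 6 h, and control, C64 in run 3 after 16 h of retinoic acid with 500 µM IAA (RA + IAA), retinoic acid (RA), IAA for 16 h, and control, with 2 libraries per group, and B8 after 6 h of 500 µM IAA and B8 control, with 4 libraries per group (2 of run 6 and 2 of run 8). Control cells are untreated by their labels and received DMSO by the study's methods. The sources differ on the concentration of retinoic acid, which is therefore not given.

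Reads assigned to these genes numbered 3854622 to 5056322 per C64 library, and 900651 to 2523832 per B8 library, so that B8 values rest on fewer reads. Levels are CPM, counts scaled to the size of the library, after TMM scaling, which removes any change shared by all genes. Of 8 embryonic stem cell markers 7 had reads in every library, with a summed level of 9.33 to 31.5 CPM per kb. The sums were 1.38 to 4.75 CPM per kb for fibroblast markers, 3.698 to 12.1 for neural, 4.34 to 10.7 for primitive endoderm and 7.33 to 17.6 for muscle markers, of which Myog alone had 2.91 to 13.6. The muscle sum was above the embryonic stem cell sum in 5 of 24 libraries (RA 1 and 2, RA + IAA 2 and both B8 IAA libraries of run 6), so that these sums do not set the labelled cell type apart in every library. Sox2 was listed at 0 throughout, and it lies wholly inside Sox2ot. The counting command has no option for reads that fall in 2 genes at once, which also touches members with an overlapping neighbour. Tbpl1, whose coding sequence was removed in B8, had 0 to 4.37 CPM in the 8 B8 libraries, against 6.23 to 16.0 CPM in the 16 C64 libraries. Tbp, whose degron acts on the protein, had 21.8 to 51.1 CPM over all 24 libraries, which checks nothing of its depletion. B8 control library 2 of run 6 stood apart from the other B8 controls (correlation of log2 CPM of 0.877 to 0.902, with 11.8% of its reads in gene types outside the C64 tables), and the B8 differences are given with and without it. In run 2 the 2 libraries of a group are named a and b after the 2 sets that the column names form. The run 8 libraries of each B8 group are numbered 1 and 2 in the order of their columns. The sources differ on their replicate numbers, so these are not the numbers of the sample titles.

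Small heat shock proteins bind unfolding proteins without using ATP and hold them for refolding. BAG proteins bind Hsp70 chaperones and release their nucleotide, and BAG3 with HSPB8 passes damaged proteins on to autophagy. HSF1 is the main activator of the heat shock response: heat turns it into a trimer that binds heat shock elements, arrays of GAA and TTC units in alternation, in the promoters of chaperone genes. TBP is the subunit of TFIID that binds the TATA box, an element found in the promoters of many inducible genes.

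The promoters of the 3 members that rose with heat are shown first, together with that of Hspb6, which did not pass the test and whose window is the only one with TATAAA. Windows of 250 bases before to 50 bases after the annotated start (RefSeq, GRCm38.p6) were found for 6 of the 8 members, not for Cryab and Hsf1. Of these windows 4 are printed, 5′ to 3′ on the strand of the gene, for Hspb1 (chr5:135887669-135887968, plus strand), Hspb8 (chr5:116422815-116423114, minus strand), Bag3 (chr7:128523333-128523632, plus strand) and the second annotated start of Hspb6 (chr7:30553051-30553350, plus strand). Capitals mark the letters GAANNTTC, which are the pair of units of a heat shock element and read the same on both strands, and TATAAA.
Hspb1 promoter: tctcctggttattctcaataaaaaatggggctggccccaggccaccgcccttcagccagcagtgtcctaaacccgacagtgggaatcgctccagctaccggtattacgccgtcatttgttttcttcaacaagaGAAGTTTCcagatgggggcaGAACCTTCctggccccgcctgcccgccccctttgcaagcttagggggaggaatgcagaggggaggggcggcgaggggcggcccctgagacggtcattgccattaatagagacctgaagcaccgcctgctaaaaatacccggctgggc
Hspb8 promoter: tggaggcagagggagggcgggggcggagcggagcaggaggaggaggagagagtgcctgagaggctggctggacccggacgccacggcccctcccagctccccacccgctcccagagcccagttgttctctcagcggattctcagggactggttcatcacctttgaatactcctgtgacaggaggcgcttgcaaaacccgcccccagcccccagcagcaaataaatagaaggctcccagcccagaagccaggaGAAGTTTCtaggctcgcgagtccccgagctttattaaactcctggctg
Bag3 promoter: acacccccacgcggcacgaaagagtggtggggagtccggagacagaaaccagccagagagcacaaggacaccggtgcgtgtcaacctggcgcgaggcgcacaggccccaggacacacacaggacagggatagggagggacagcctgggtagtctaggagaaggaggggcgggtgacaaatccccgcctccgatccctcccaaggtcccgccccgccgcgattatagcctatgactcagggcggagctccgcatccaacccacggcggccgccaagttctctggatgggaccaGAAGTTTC
Hspb6 promoter, second start: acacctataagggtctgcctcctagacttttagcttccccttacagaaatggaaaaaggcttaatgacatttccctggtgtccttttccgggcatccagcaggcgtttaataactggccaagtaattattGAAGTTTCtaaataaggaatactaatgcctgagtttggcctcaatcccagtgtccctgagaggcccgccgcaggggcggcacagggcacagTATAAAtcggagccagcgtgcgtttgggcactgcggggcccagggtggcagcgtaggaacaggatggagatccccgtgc

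GAANNTTC occurred in the windows of Hspb1, Hspb8, Bag3 and Hspb6 and in 7.86% of all 32851 windows. In Hspb1 it stood at -117 to -110 and again at -97 to -90 relative to the start, in Hspb6 at -120 to -113, in Hspb8 at 3 to 10 and in Bag3 at 43 to 50. The same 8 letters, GAAGTTTC, were found once in each of these 4 windows and, on either strand, in 1.21% of all windows; these letters were singled out after they were seen. TATAAA was found in the window of Hspb6 only, at -29 to -24, against 13.6% of all windows. The other phase, TTCNNGAA (8.52% of all windows), and runs of 3 or more units of GAA and TTC in alternation with 2 bases between them (0.603%) were found in none of the 7 windows of the members. In Bag3 the match ends at the last base of the window, so a run that continues past it could not be seen. The windows of Bag1 and Hsf2 and the first window of Hspb6 held none of these letters. A match of letters is a description and not a binding site. On the gene lists deposited with the study, Hspb1, Hspb6 and Hspb8 were among the TATA genes and Cryab, Bag1, Bag3, Hsf1 and Hsf2 among the TATA-less genes.

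The level of Pol II per kb of gene differed widely among the members in C64 controls (n = 4, both runs). Hspb1, which encodes HSP27 and is the shortest member at 1.65 kb, had the highest mean, 6.82 ± 1.71 CPM per kb (SD), and all 4 of its values were above those of the next gene. Hsf1 followed with 3.52 ± 0.524, Hspb6, a small heat shock protein best known from muscle, with 3.11 ± 0.965, Hsf2 with 2.32 ± 0.255, Bag1 with 1.72 ± 0.434, Bag3 with 1.44 ± 0.356 and Hspb8 with 1.35 ± 0.546 CPM per kb. Cryab, which encodes alpha-B crystallin of lens and muscle, was lowest with 0.765 ± 0.218 CPM per kb. Its length includes 19.4% shared with Hspb2, at the annotated start, where reads may be missing from its count. The part of this overlap in its rank was not tested. From Hsf1 downward each gene overlapped the next in this order. The order depends on the division by gene length. In CPM over the whole gene, Hspb1 had a mean of 11.2, against 86.1 for Hsf1 (24.5 kb) and 62.2 for Hsf2 (26.8 kb). Cryab had 4.06 CPM and was lowest by that measure too. The part of gene length in the rank of Hspb1 was not tested. Of the silent olfactory receptor genes (Olfr, 1408 in the tables) the median was 0.0779 and the 95th percentile 0.410 CPM per kb. In these controls every member lay above the Olfr background, and Cryab lay nearest to it. Of all 27752 genes, 96.3% were below Hspb1 and 57.8% below Cryab in CPM per kb. In single groups, mean Cryab was under the 95th percentile of Olfr with IAA for 6 h (0.399 against 0.433) and 16 h (0.326 against 0.476). The same held in HS + IAA (0.381 against 0.455), RA (0.415 against 0.457) and B8 IAA (0.455 against 0.479), and in no other group.

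**Figure D1:**
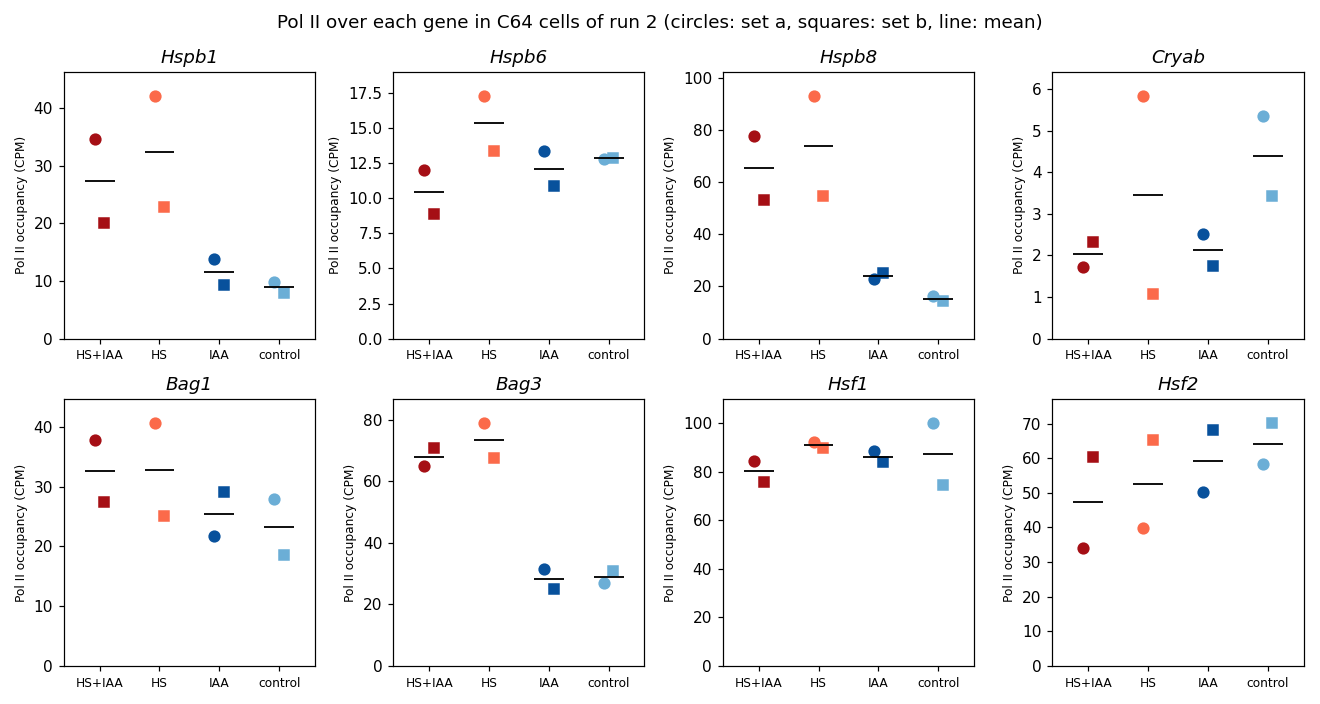
Pol II occupancy in CPM (y axis, from 0) over each of the 8 genes in the C64 libraries of run 2, with HS + IAA, HS, IAA for 6 h and control from left to right, circles for set a, squares for set b and lines for group means. Hspb8, Hspb1 and Bag3 lie higher in all 4 heated libraries than in all 4 unheated ones, and the other members do not.

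The first comparison asked which members gained Pol II within 30 min of heat shock while TBP was present. Hspb8, Hspb1 and Bag3 rose and none fell, that is 3 of 8 tested members against 256 of 16332 genes (1.57%) that rose among all genes. Hspb8 had 92.9 and 54.5 CPM in HS cells, against 16.2 and 14.4 CPM in control cells (a and b). It rose 4.94-fold (log2 fold change 2.30 ± 0.29 SE, adjusted p = 7.25e-04, edgeR quasi-likelihood test), and only 7 genes of the table had a larger increase. Hspb1 had 42.0 and 22.8 CPM in HS cells, against 9.83 and 7.95 CPM in control cells. Its increase was 3.74-fold (1.90 ± 0.35, adjusted p = 0.00712).

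Bag3 had 78.8 and 67.7 CPM in HS cells, against 26.9 and 30.95 CPM in control cells. It rose 2.59-fold (1.37 ± 0.24, adjusted p = 0.00625), and its HS libraries lay closer together than those of Hspb8 and Hspb1, where library a was the higher one. Without control library a the adjusted p of Bag3 was 0.102, with a change of 1.26. The gene 2610306O10Rik lies inside Bag3 over 2.62% of its length and was under the filter on low counts. No gene lies within 2 kb of Hspb1 or Hspb8. The neural marker sum rests on Pax6 and Neurog2, with Sox1 listed at 0. It was 7.29 to 12.1 CPM per kb in the 4 heated libraries of the run, against 4.99 to 7.14 in the 4 unheated ones. Summed embryonic stem cell markers were 24.002 to 31.5 with heat, against 19.1 to 25.7 without. Summed fibroblast markers were 2.05 to 2.59 with heat, against 1.78 to 2.23 without. These ranges overlapped, as did those of primitive endoderm and muscle markers. The part of any of these marker sets in the increases of Hspb8, Hspb1 and Bag3 was not tested.

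The other members did not pass the test. Hspb6 had 17.3 and 13.4 CPM in HS cells, against 12.8 and 12.9 CPM in control cells, a log2 fold change of 0.29 ± 0.33 (95% interval of the fold 0.750 to 1.99). The HS libraries of Hspb6 lay above the control libraries without overlap. With 2 libraries per group such a separation arises easily by chance. Its share over all genes was not counted, here or in the comparisons below. Its first 122 bases are shared with Proser3 on the other strand, whose change was -0.52 ± 0.35 (adjusted p = 0.513). Bag1, the founding member of the BAG family, had 40.6 and 25.1 CPM in HS cells, against 28.0 and 18.5 CPM in control cells (0.54 ± 0.31, adjusted p = 0.422), and these groups overlapped. Without HS library b its adjusted p was 0.0383, with a change of 0.80. Chmp5, divergent from Bag1 across 112 bases, changed by 0.14 ± 0.28 (adjusted p = 0.872).

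Hsf1, whose protein is the factor that binds the heat shock elements, had 92.1 and 89.6 CPM in HS cells, against 99.8 and 74.6 CPM in control cells. Its fold change of 1.07 had a 95% interval of 0.763 to 1.49. Hsf2, a related factor that can form mixed trimers with HSF1, had 39.8 and 65.1 CPM in HS cells, against 58.4 and 70.1 CPM in control cells (-0.27 ± 0.26, interval of the fold 0.572 to 1.21). For both factors the groups overlapped. Bop1 and Dgat1, the neighbours of Hsf1 on either side, changed by 0.50 ± 0.22 and -0.56 ± 0.25 with adjusted p = 0.260 and 0.281.

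Cryab was covered by few reads, 29 and 5 in HS cells against 25 and 16 in control cells. Its level was 5.83 and 1.06 CPM in HS cells, against 5.34 and 3.44 CPM in control cells, and the interval of its fold change, 0.319 to 2.08, allows changes of more than 2-fold in either direction. The first 1030 bases of Cryab (19.4% of the gene, with its annotated start) also belong to Hspb2 on the other strand. Hspb2 was under the filter on low counts.

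The second comparison repeated the heat shock in cells depleted of TBP, HS + IAA against IAA for 6 h. Hspb8 and Bag3 rose and none fell, that is 2 of 7 tested members, against 115 of 16486 genes (0.698%) that rose among all genes. Hspb8 had 77.5 and 52.9 CPM in HS + IAA cells, against 22.8 and 25.0 CPM in IAA cells. It rose 2.75-fold (1.46 ± 0.25, adjusted p = 0.0163). Bag3 had 64.9 and 70.7 CPM in HS + IAA cells, against 31.3 and 25.0 CPM in IAA cells. It rose 2.42-fold (1.28 ± 0.23, adjusted p = 0.0195). Without IAA library a or IAA library b these calls were lost, while the changes were 1.41 and 1.52 for Hspb8 (adjusted p = 0.0772 and 0.0629) and 1.46 and 1.12 for Bag3 (adjusted p = 0.0615 and 0.323).

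Hspb1 had 34.5 and 20.1 CPM in HS + IAA cells, against 13.8 and 9.33 CPM in IAA cells, and the groups did not overlap. Its 2.38-fold difference (1.25 ± 0.33, 95% interval of the fold 1.46 to 3.87) missed the threshold with adjusted p = 0.0722. It passed under edgeR's likelihood-ratio test (adjusted p = 0.0136), DESeq2 (0.0125) and without the filter on low counts (0.00238). Of 11 alternatives 5 passed and the others missed. With 1 library left out, the change of Hspb1 was 0.80 to 1.58. Bag1 had 37.8 and 27.5 CPM in HS + IAA cells, against 21.7 and 29.1 CPM in IAA cells (0.37 ± 0.27). Hspb6 had 12.0 and 8.89 CPM in HS + IAA cells, against 13.4 and 10.9 CPM in IAA cells (-0.20 ± 0.33). Both pairs of groups overlapped.

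Hsf1 had 84.5 and 75.8 CPM in HS + IAA cells, against 88.6 and 83.8 CPM in IAA cells (-0.09 ± 0.22). Hsf2 had 34.1 and 60.4 CPM in HS + IAA cells, against 50.4 and 68.1 CPM in IAA cells (-0.32 ± 0.28). In all 4 groups of the run the a library of Hsf2 was the lower one. Without HS + IAA library b, Hsf2 was at -0.80 with adjusted p = 0.0319. Cryab did not pass the filter here and had 1.72 and 2.33 CPM in HS + IAA cells, against 2.51 and 1.74 CPM in IAA cells.

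**Figure D2:**
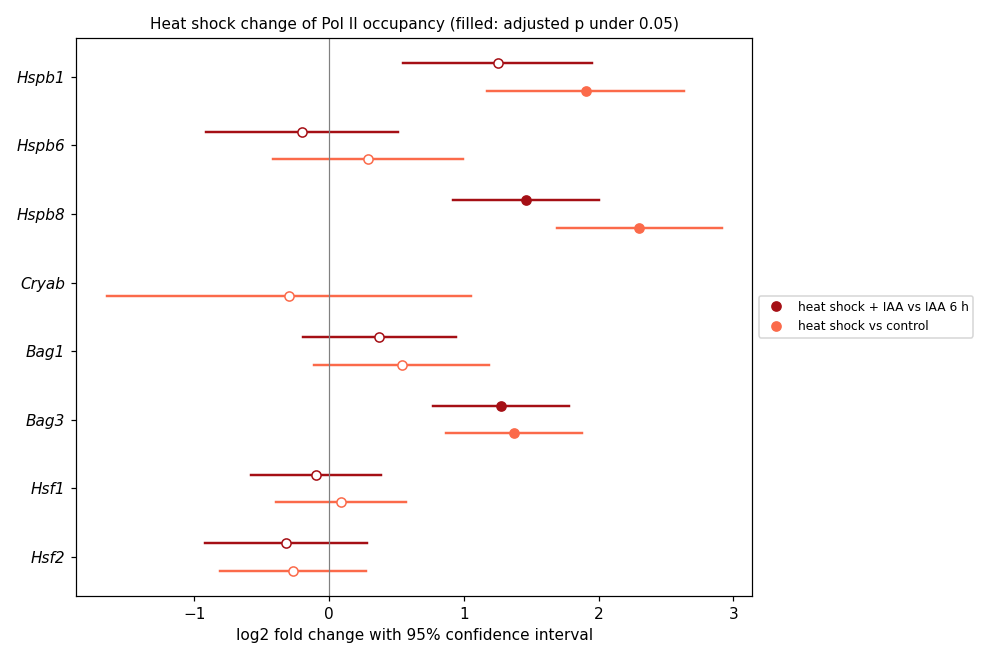
Log2 fold change of Pol II occupancy with its 95% confidence interval (x axis) for each member (y axis), in HS + IAA over IAA for 6 h (dark red) and in HS over control (light red), filled where the adjusted p was under 0.05. Hspb8 and Bag3 are filled in both comparisons and Hspb1 in HS over control only, while the intervals of Hspb6, Bag1, Hsf1 and Hsf2 all include 0.

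Whether the heat response itself differed with IAA was tested as an interaction over the 8 libraries of run 2. No member and no gene passed (0 of 16961, 0%). An unadjusted p under 0.05 was found for 121 genes, none of them a member, and the likelihood-ratio test and DESeq2 made 0 calls. For Hspb8 the response with IAA was 0.571 times that without IAA (log2 difference -0.81 ± 0.42, 95% interval of the ratio 0.304 to 1.07, unadjusted p = 0.0760), and for Hspb1 it was 0.652 times (-0.62 ± 0.54, interval 0.290 to 1.47). For Bag3 the log2 difference was -0.07 ± 0.30, with an interval of -0.72 to 0.59. The comparisons of run 2 share their HS, IAA and control libraries, so they are not independent of each other. These intervals do not exclude a smaller response of Hspb8 and Hspb1 with IAA, nor an equal one.

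In the heated cells alone, HS + IAA against HS, none of 7 tested members passed, and no gene did (0 of 16628, 0%). The edgeR quasi-likelihood test gave 160 genes under an unadjusted 0.05, without a member among them, and the other tools made 0 calls. Hspb8 in HS + IAA cells was at 0.894 times its level in HS cells (95% interval 0.528 to 1.52), Hspb1 at 0.853 times (0.462 to 1.58) and Bag3 at 0.934 times (0.642 to 1.36). Of the tested members the lowest ratio was that of Hspb6, 0.690 (0.395 to 1.21), and its HS + IAA libraries lay below its HS libraries without overlap. The same held for Hsf1 at a ratio of 0.893 (0.618 to 1.29). The groups overlapped for Hspb8, Hspb1, Bag3, Bag1 and Hsf2.

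Before heat, IAA for 6 h against control passed the threshold for no member, against 7 of 16157 genes (0.0433%). Of the 7 tested members the largest difference was that of Hspb8, with 22.8 and 25.0 CPM in IAA cells, against 16.2 and 14.4 CPM in control cells. These groups did not overlap, and the 1.57-fold difference (0.65 ± 0.23, 95% interval of the fold 1.11 to 2.22) had an unadjusted p of 0.0160 and an adjusted p of 0.99997. It was the only tested member under an unadjusted 0.05, and the likelihood-ratio test and DESeq2 called no member. The same IAA libraries are the baseline of Hspb8 in the comparison of HS + IAA with IAA. Hspb1 had 13.8 and 9.33 CPM in IAA cells, against 9.83 and 7.95 CPM in control cells (0.39 ± 0.31), and the groups overlapped. Bag3, Bag1, Hspb6, Hsf1 and Hsf2 had differences of -0.11 to 0.14. Cryab, under the filter here, had 2.51 and 1.74 CPM in IAA cells, against 5.34 and 3.44 CPM in control cells. These values rest on 8 to 12 reads against 16 to 25, without overlap and with no test. The mean of Cryab with IAA lay within the Olfr background, under its 95th percentile.

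The chaperone genes known as targets of HSF1 were set beside the members as background for the size of the response. Of 18 such genes 12 rose in HS cells and none fell, with a median log2 fold change of 1.39 against 0.03 over all genes tested. In HS + IAA cells over IAA cells 12 rose, with a median of 1.504 against 0.02. These were not the same 12 genes. Ahsa1 and Hsp90aa1 passed only in HS over control, and Hspd1 and Hspe1 only in HS + IAA over IAA. The study itself names several of the 18, among them Hsph1 and Hspa1b, as heat-induced in these cells. Hsph1, an Hsp110 chaperone that also exchanges the nucleotide of Hsp70, had the largest increase of all genes in both comparisons, 3.78 ± 0.29 in HS + IAA over IAA and 4.06 ± 0.27 in HS over control. Stip1, an adaptor of Hsp70 and Hsp90, was at 2.04 ± 0.25 in HS over control, and Hspa4l, another Hsp110 chaperone, at 1.98 ± 0.26, beside 2.30 ± 0.29 for Hspb8. Hspa1b, an inducible Hsp70, was at 3.14 ± 0.35 in HS + IAA over IAA and at 2.82 ± 0.31 in HS over control. Hspa1a was at 3.40 ± 0.50 and 3.29 ± 0.55 in the same order. The reads of these near-identical copies cannot be assigned with certainty. In IAA for 6 h against control, without heat, 1 of 17 tested HSF1 targets fell, Hspa8, and 0 rose, beside 0.0433% of all genes that passed.

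**Figure D3:**
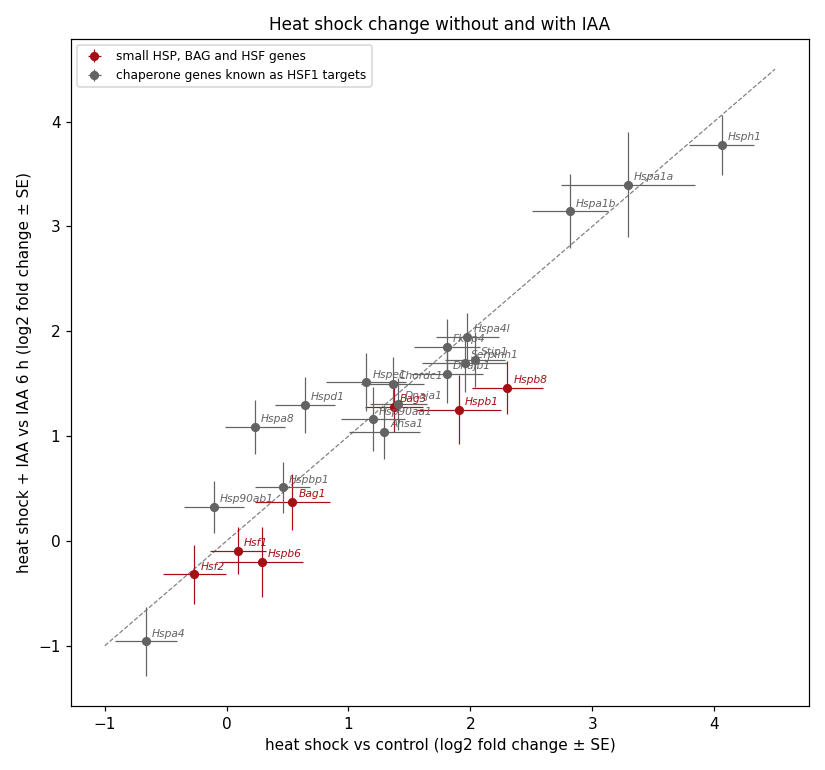
Log2 fold change ± SE in HS + IAA over IAA for 6 h (y axis) against that in HS over control (x axis) for the 7 members tested in both (red) and 18 chaperone genes known as HSF1 targets (grey), with the line of equal change dashed. Hspb8 lies at 1.46 on the y axis and 2.30 on the x axis, Hspb1 at 1.25 and 1.90, and Bag3 at 1.28 and 1.37.

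No close relative of the members passed the test in the comparisons of heat with no heat. Among the other small heat shock protein genes, 0 of 3 tested passed in either comparison (Hspb7, Hspb9 and Hspb11), while Hspb2, Hspb3, Odf1 and Cryaa were under the filter. Their median change was -0.35 in HS + IAA over IAA and -0.38 in HS over control. Of the other BAG genes, Bag2, Bag4, Bag5 and Bag6, 0 of 4 passed (medians -0.12 and -0.35). Bag6, which guides membrane proteins and defective proteins, was at -0.94 ± 0.27 in HS + IAA over IAA with adjusted p = 0.0936. Of the other HSF genes and HSF binding partners 0 of 6 tested passed (medians 0.06 and -0.05). Hsbp1, whose protein binds HSF1 trimers, was at 0.37 ± 0.44 and 1.08 ± 0.44 in the same order, with adjusted p = 0.727 and 0.225. Hsf2bp, whose protein binds HSF2, was at -0.56 ± 0.22 and -0.67 ± 0.23, with adjusted p = 0.212 and 0.134.

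Genes whose products work with BAG3 and HSPB8 in selective autophagy were also counted. Of 8 tested, 0 rose in either comparison and 1 fell in HS cells. That gene was Sqstm1, which encodes the autophagy receptor p62, at -1.17 ± 0.25 with adjusted p = 0.0175 in HS over control and at -1.001 ± 0.27 with adjusted p = 0.0827 in HS + IAA over IAA. Without heat, Sqstm1 had 172 and 187 CPM in IAA cells, against 295 and 304 CPM in control cells, a difference that did not pass the test. The same IAA libraries are its baseline in HS + IAA over IAA. The medians of the list were -0.04 in HS + IAA over IAA and -0.21 in HS over control. Of 8 cochaperones that exchange the nucleotide of Hsp70 or its relatives, 2 rose in each comparison, Hsph1 and Hspa4l, both also on the list of HSF1 targets, with list medians of 0.35 and 0.03.

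In run 3, IAA for 16 h against control passed for no gene (0 of 16349, 0%). By the edgeR quasi-likelihood test 319 genes were under an unadjusted 0.05, none of them among the 7 tested members. The likelihood-ratio test called 2 genes and DESeq2 called 18, none of them a member. Hspb8 had 19.2 and 35.4 CPM in IAA cells, against 15.9 and 31.1 CPM in control cells (numbers 1 and 2), and the 95% interval of its fold was 0.612 to 2.22. In each of the 4 groups of this run the number 2 library had the higher level of Hspb8. Bag3 had 30.6 and 27.9 CPM in IAA cells, against 45.8 and 30.7 CPM in control cells (-0.37 ± 0.25, adjusted p = 0.999), and the groups just failed to overlap. The groups also did not overlap for Hspb6, which was higher with IAA, and for Hsf1 and Cryab, which were lower. Cryab was not tested. Hspb1 had 9.79 and 15.0 CPM in IAA cells, against 13.96 and 13.1 CPM in control cells.

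Retinoic acid starts the differentiation of these cells, and Hspb8 was lower with RA than without it in each same-numbered pair of libraries. In RA against control, 0 of 7 tested members passed, none at an unadjusted p under 0.05, against 3 of 16350 genes (0.0183%), and the likelihood-ratio test and DESeq2 called no member. Hspb8 had 6.92 and 16.2 CPM in RA cells, against 15.9 and 31.1 CPM in control cells, a log2 fold change of -1.01 ± 0.49 with adjusted p = 0.863. In RA + IAA against IAA for 16 h, 0 of 7 passed, against 0 of 16395 genes (0%). Hspb8 was the only member among 629 genes under an unadjusted 0.05, and the 72 genes called by the likelihood-ratio test and the 171 called by DESeq2 held no member. Hspb8 had 5.71 and 16.3 CPM in RA + IAA cells, against 19.2 and 35.4 CPM in IAA cells (-1.29 ± 0.54, adjusted p = 0.99986). The RA and control libraries overlapped, and those of RA + IAA and IAA did not. Same-numbered libraries of run 3 deviated together (correlations of 0.382 to 0.603), and with the number as a block Hspb8 fell by 1.035 on the log2 scale in RA over control (adjusted p = 0.00208) and by 1.37 in RA + IAA over IAA (adjusted p = 0.0120). The same blocked fits called 1863 of 16350 genes in RA over control (11.4%, with 6.64% lower) and 298 of 16395 genes in RA + IAA over IAA (1.82%, with 1.07% lower), and among the 7 tested members Hspb8 alone. Each blocked fit adds a term to a comparison of 4 libraries. Little is then left to estimate the spread of a single gene, and its p-values lean on the spread pooled over genes. Summed embryonic stem cell markers were also lower, at 9.33 to 12.6 CPM per kb in the 4 libraries with RA, against 14.6 to 20.7 CPM per kb in the 4 without. Summed fibroblast markers were 2.58 to 4.75 with RA, against 1.55 to 2.40 without, neural markers 4.81 to 6.404 with RA, against 7.01 to 7.92 without, and primitive endoderm markers 5.51 to 8.21 with RA, against 9.08 to 10.7 without. Muscle markers overlapped, with 9.44 to 12.0 with RA, against 8.02 to 14.7 without. The part of these markers in the difference of Hspb8 was not tested.

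Bag3 stood on the other side, with 46.9 and 38.6 CPM in RA + IAA cells, against 30.6 and 27.9 CPM in IAA cells (0.56 ± 0.24, unadjusted p = 0.0521, adjusted p = 0.99986). These groups did not overlap. It had 55.6 and 41.0 CPM in RA cells, against 45.8 and 30.7 CPM in control cells (0.35 ± 0.27), and those groups overlapped. Neither difference passed the test. Hsf1 was lower in RA cells than in control cells without overlap, with 68.4 and 62.0 CPM against 94.3 and 75.8 CPM. The same held for Cryab, which was not tested, while Bag1 and Hspb6 were higher with RA without overlap. In RA + IAA against IAA the groups overlapped for each of these genes. A lack of overlap between 2 and 2 libraries is weak evidence of a difference, and its share over all genes was not counted. Between RA + IAA and RA no gene passed (0 of 16439, 0%). In that comparison 104 genes were under an unadjusted 0.05 by edgeR's quasi-likelihood test, none of the 7 tested members among them, and the likelihood-ratio test called 0 genes and DESeq2 called 2, neither a member. The ratios of the tested members lay between 0.758 for Bag1 and 1.28 for Hsf1. For Bag1 and Hsf1 the groups did not overlap. Cryab, under the filter, had 2.04 to 4.88 CPM in RA + IAA cells, against 1.89 to 2.52 CPM in RA cells.

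**Figure D4:**
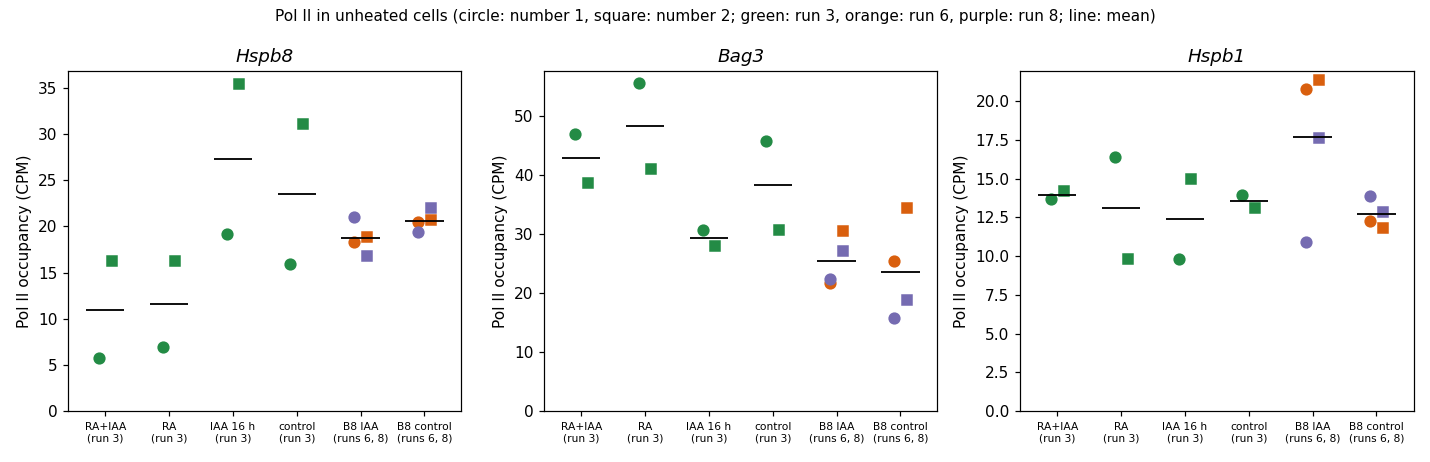
Pol II occupancy of Hspb8, Bag3 and Hspb1 in CPM (y axis, from 0) in the groups of run 3 and of B8, with circles for number 1, squares for number 2, green for run 3, orange for run 6, purple for run 8 and lines for group means. Hspb8 is lower with RA than without it within each number, and its 8 B8 values lie between 16.8 and 21.97 CPM.

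In B8 cells, which lack TRF2, IAA passed the threshold for none of 6 tested members (0 at an unadjusted p under 0.05, 0 by the likelihood-ratio test and 0 by DESeq2), against 777 of 13675 genes (5.68%, of which 327 were higher, and 682 of 941 higher without TMM scaling). Hspb8 had 18.3, 18.9, 20.97 and 16.8 CPM in B8 IAA cells, against 20.5, 20.6, 19.4 and 21.97 CPM in B8 control cells (libraries 1 and 2 of run 6, then of run 8). The groups overlapped (-0.15 ± 0.21, 95% interval of the fold 0.661 to 1.23, and -0.13 without the library that stood apart). Hspb1 had 20.8, 21.4, 10.9 and 17.6 CPM in B8 IAA cells, against 12.3, 11.8, 13.9 and 12.8 CPM in B8 control cells (0.39 ± 0.26, adjusted p = 0.424, and 0.32 without that library). Of the 4 IAA libraries, 3 lay above all control libraries, the exception being library 1 of run 8. The difference of Hspb1 was 0.72 in run 6 and 0.12 in run 8.

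Bag3 had 21.6, 30.4, 22.3 and 27.1 CPM in B8 IAA cells, against 25.4, 34.4, 15.7 and 18.8 CPM in B8 control cells in the same order. The 2 runs went in opposite directions. Its difference of 0.17 ± 0.24 was -0.29 within run 6 and 0.54 within run 8, and 0.36 without the B8 control library that stood apart. Bag1 (0.14 ± 0.22), Hsf1 (0.23 ± 0.12) and Hsf2 (0.31 ± 0.15) had adjusted p of 0.277 to 0.775, and without that library they were at -0.02, 0.19 and 0.22. Hspb6 and Cryab were under the filter, with 9.61 to 15.6 and 0.822 to 5.81 CPM in IAA cells, and 5.90 to 12.4 and 1.37 to 5.73 CPM in control cells. Without the library that stood apart the lowest control value of Hspb6 was 8.33 CPM, and the range of Cryab was as before. Among the relatives, Hsf2bp fell by 0.49 ± 0.12 on the log2 scale in B8 IAA cells (adjusted p = 0.0266, edgeR quasi-likelihood test), 1 of 3 tested on the list of HSF genes and partners. Of 15 tested HSF1 targets 2 fell, Hsp90ab1 and Hspa8, and 0 rose, beside 3.29% of all genes that fell. Hspa8 is also on the list of autophagy partners.

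B8 control was set against C64 control of run 2, where the cell line and the run cannot be told apart. No member and no gene passed (0 of 14622, 0%). The edgeR quasi-likelihood test gave 863 genes under an unadjusted 0.05, the likelihood-ratio test called 21 genes and DESeq2 called 73, and none of these was among the 7 tested members. Hspb1 was 1.48 times as high in B8 (95% interval 0.916 to 2.40), Hspb8 1.39 times (0.947 to 2.04) and Bag3 0.820 times (0.493 to 1.36). Without the B8 control library that stood apart, the log2 differences were 0.57 for Hspb1 (0.57 with it), 0.44 for Hspb8 (0.48 with it) and -0.56 for Bag3 (-0.29 with it, adjusted p = 0.497 without it). With the run 8 controls alone, Bag3 was at -0.75 with adjusted p = 0.0874.

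One IAA effect was then estimated over the 6 contexts in which IAA was added, with 24 libraries. No member passed (0 of 8 tested, 0 at an unadjusted p under 0.05, 0 by the likelihood-ratio test and by DESeq2), against 144 of 17873 genes (0.806%, of which 13 were higher, and 49 of 153 without TMM scaling). The 95% intervals of the fold were 0.870 to 1.32 for Hspb1, 0.817 to 1.25 for Hspb6, 0.820 to 1.33 for Hspb8, 0.853 to 1.22 for Bag1, 0.810 to 1.08 for Bag3, 0.914 to 1.17 for Hsf1 and 0.884 to 1.204 for Hsf2. All lay within 2-fold in either direction, relative to the other genes. Cryab had the widest interval, 0.438 to 1.05, around a difference of -0.56 ± 0.31. Its mean level was under the 95th percentile of Olfr in every group with IAA except RA + IAA. Without the B8 control library that stood apart Cryab was at -0.58 and the other members at -0.07 to 0.08. On the lists set beside the members, 3 of 18 tested HSF1 targets fell (Hsp90ab1, Hspa8 and Hsph1). Of 8 tested autophagy partners 2 fell (Hspa8 and Sqstm1). On both lists 0 rose, beside 0.733% of all genes that fell.

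**Figure D5:**
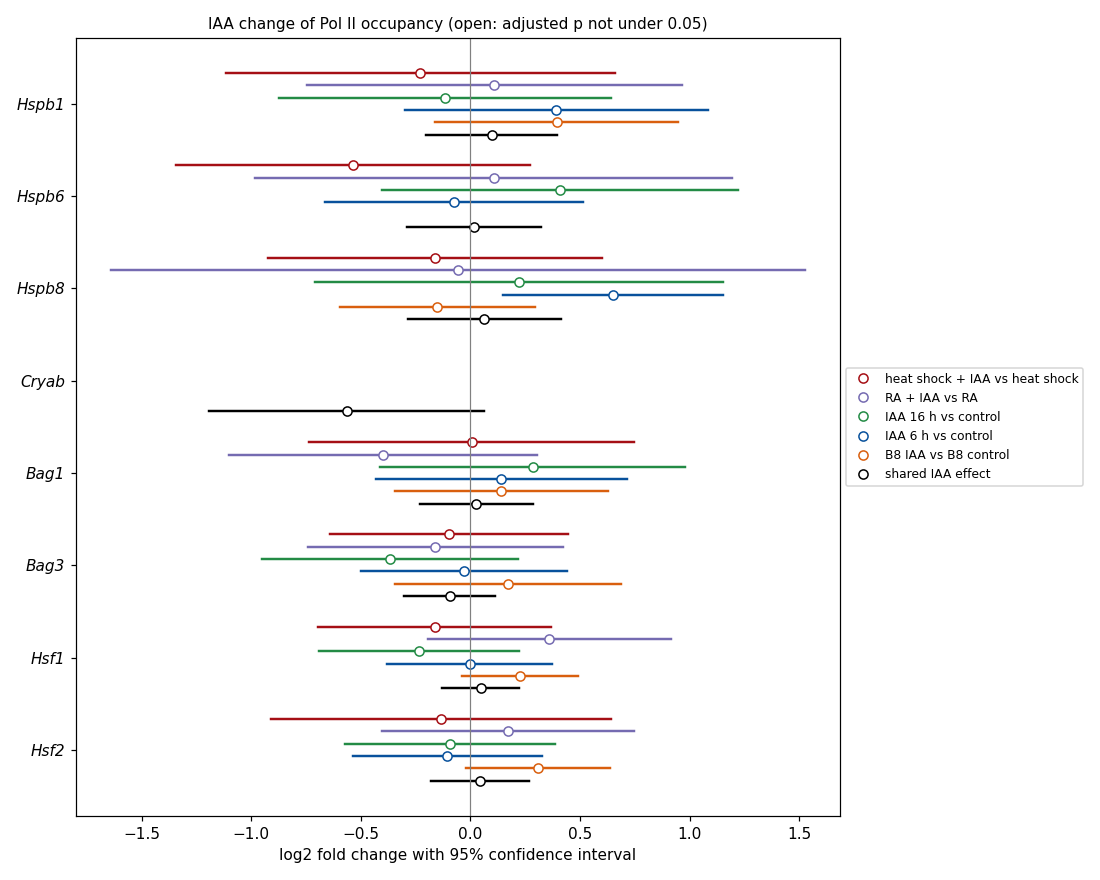
Log2 fold change with its 95% confidence interval (x axis) of each member (y axis) in the comparisons with IAA over those without it, in heated C64 cells (red), RA (violet), 16 h (green), 6 h (blue), B8 (orange) and all contexts together (black); Cryab passed the filter in the last only. All circles are open (no adjusted p under 0.05), and the interval of Hspb8 at 6 h, 0.15 to 1.15, is the only one that does not include 0.

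Over the 16 C64 libraries the log2 CPM of the members moved together only in part, with libraries sharing treatment, set and depth. Hspb1 and Bag3 had a Pearson r of 0.836 and Hspb1 and Hspb8 of 0.693, while Hspb8 and Hsf2 had -0.579. Over the 12 unheated libraries, Hspb8 and Bag3 had -0.794 and Hspb1 and Hspb8 had -0.175. The genes most like Hspb1 among 17614 genes were Gpc1 (r = 0.914), Serpinh1 (0.913), a collagen chaperone, and Rhbdf1 (0.913). Those most like Hspb8 were Spag6l (0.949), Ankrd36 (0.939) and Otx2os1 (0.938), and among those most like Bag3 were Ubn1 (0.927) and Bsdc1 (0.902). Hsf2 was most like Rab10os (0.952), Capn12 (0.952) and Slc10a1 (0.941), Bag1 like Mfsd11 (0.876), 4930556J24Rik (0.848) and Psmd13 (0.846), Hsf1 like Phrf1 (0.865), Rps13 (0.859) and Fbxl19 (0.848), Hspb6 like Adam15 (0.875), Supt4a (0.863) and Lamtor2 (0.861), and Cryab like Ttc5 (0.761) and Chst10 (0.744).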

How the data were processed

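Pol II CUT&Tag libraries were counted by the authors, who aligned reads with Bowtie2 to mm10, subsampled each library to a set depth, kept PCR duplicates and counted reads over whole genes with featureCounts (2.0.0 in the B8 file headers) without strand. The deposited values are raw counts. Deposited scaling factors were not used here, and the authors' TATA and TATA-less lists were used for gene names only. Where a library's column was repeated in a further table (14 repeats), the copies were identical, and each library was used once. Counts were tested with edgeR 4.0.16 in R 4.3.3 (TMM, filterByExpr with a minimum count of 20, quasi-likelihood F test, two-sided, Benjamini-Hochberg threshold 0.05 over all genes tested), with DESeq2 1.42.0 as an alternative. Standard errors come from the unshrunk coefficients (Wald). B8 fits had run as a block. The scripts were tested on simulated data. The study calls the libraries biological replicates; whether cultures were separate is not given in the sources used here, so p-values measure the spread between libraries. Members, lists and tests were chosen with earlier results of these data known. Genes were named by rule: all members, neighbours within 2 kb, up to 4 genes per list and direction past the threshold, and the 3 most like each member, of which a few are not reported here; a few list genes and the promoter letters were chosen after their values were seen. Run 3 numbers pair libraries in that same-numbered libraries deviated together (0.382 to 0.603 in 6 pairs of groups). Alternatives were the test, tool, scaling, filter, left-out libraries, blocks and joint fits, and, added after seeing the data, single runs of B8 and the genes of the C64 tables.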

Additional observations from a re-analysis of the deposited data

Results flagged for a closer look

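In B8 IAA cells, Hsf2 had 46.5 CPM in library 1 of run 6, against 62.5 to 64.02 CPM in the other B8 IAA libraries, a sample far from the rest of its group of 4 (its gap was 0.912 of the range, above Dixon's critical value for 4 samples). It was the only such case in 16 sets of a member and a group, and chance flags about 1 in 20 groups.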

How the results depend on the processing

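No member past the threshold changed sign in any alternative. Over 1178 alternative fits of 86 member values, 87 changes of sign occurred, all in values on the uncalled side. Hspb8 and Hspb1 stayed past the threshold for HS over control in all 11 alternatives and Bag3 in 10. For HS + IAA over IAA the number of members past the threshold was 0 to 4 with 1 library left out. For RA + IAA over IAA it was 0 to 1 with 1 library left out (Hspb8, at -2.28 without RA + IAA library 2). With the replicate number as a block it was 1 for RA over control and 1 for RA + IAA over IAA, in both cases Hspb8, beside 1863 (11.4%) and 298 (1.82%) of all genes tested. The name sets of run 2 had residual correlations of 0.091 to 0.462 and were not taken as pairs, and with the set as a block Hspb1 passed in HS + IAA over IAA (adjusted p = 5.13e-04), beside 1609 of all genes (9.76%). Of the other members, the block changed no call. Blocked fits of 4 libraries leave little to estimate the spread of a single gene. The number of all genes past the threshold moved far more. With the range over alternatives in brackets, it was 494 (120 to 2589) for HS over control, 231 (95 to 2786) for HS + IAA over IAA, 0 (0 to 108) for HS + IAA over HS, 7 (0 to 193) for IAA 6 h, 0 (0 to 353) for IAA 16 h, 3 (3 to 1863) for RA, 0 (0 to 298) for RA + IAA over IAA, 0 (0 to 171) for RA + IAA over RA, 777 (15 to 2666) for IAA in B8, 0 (0 to 785) for B8 over C64 and 144 (26 to 641) for the shared IAA effect. The cause of these shifts was not tested. Without TMM scaling the median of all genes moved by 0.12 in HS + IAA over IAA and by 0.11 in B8, and no call of a member changed. With 1 library left out, the lone library was assumed to vary like the other group. Levels per kb were the same with the gene span. Depth limits Cryab most, which passed the filter in 3 of 12 comparisons.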
